A study of Caenorhabditis elegans with 10 samples.

Results

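The BBSome genes of Caenorhabditis elegans were examined in RNA from sorted cells: the 7 genes of BBSome subunits, bbs-1, bbs-2, bbs-4, bbs-5, osm-12, bbs-8 and bbs-9, and arl-6, the gene of the GTPase that brings the complex to membranes. They were taken by name, and all 8 were found among the 46272 genes of the authors' deposited table. The tested cells were ASH neurons, a pair of head sensory neurons for noxious stimuli, sorted by fluorescence for their YFP label (5 libraries). They were set against sorted cells that lacked YFP, called non-ASH here (5 libraries). Both groups came from wild-type worms on standard agar plates with no treatment, and neither the age of the worms nor the promoter that drove YFP was given in the sources used here. Since non-ASH is defined only by the lack of YFP, it can hold other ciliated neurons beside tissues without cilia.

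The BBSome is a coat-like complex that rides on the intraflagellar transport (IFT) trains of cilia and moves membrane proteins, receptors among them, through and out of the cilium. Its human counterparts were found through Bardet-Biedl syndrome, an inherited ciliopathy. In C. elegans only certain sensory neurons carry cilia, ASH among them, and BBSome mutants of the worm have defects of IFT and of chemosensory behaviour. The gene osm-12 encodes the worm's BBS7 subunit, and its name comes from the loss of osmotic avoidance, a response driven by ASH.

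The level of every BBSome gene was higher in ASH than in non-ASH, and 3 of the 8 genes, bbs-1, bbs-5 and osm-12, passed the authors' DESeq2 test at an adjusted p under 0.05, against 5.32% of all tested genes called higher. Cuffdiff, the authors' other tool, also called 3 at a q under 0.05, bbs-1, bbs-5 and bbs-9, against 3.58% of those genes. Thus bbs-1 and bbs-5 passed both, against 2.36%. Levels are in FPKM, fragments scaled to transcript length and to sequencing depth, which can be compared between genes. The authors' deposited table gives 1 value per group from the pooled libraries, so no standard deviation and no n can be set beside a level. Summed over the 8 genes, that table gives 37.4 FPKM in ASH against 8.38 FPKM in non-ASH, a ratio of 4.47. The median member stood at 3.91 FPKM in ASH against 0.733 FPKM in non-ASH there. In a bulk sample such as these, a smaller share of cells that express a gene and less RNA of it per cell cannot be told apart.

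Among the subunits built on a beta-propeller, bbs-1 (locus Y105E8A.5, chromosome I) had the largest DESeq2 fold change of the members. The largest deposited Cuffdiff one, taken with 1 added to each level, belonged to bbs-5. Without the added 1, the ratio of levels was largest in bbs-1, at 6.50 against 6.06 in bbs-5. The vertebrate counterpart of bbs-1 is the subunit that binds the arl-6 GTPase. In the authors' deposited table the level of bbs-1 was 5.12 FPKM in ASH against 0.788 FPKM in non-ASH. The DESeq2 log2 fold change there was 2.34, with an adjusted p of 0.0138, and Cuffdiff's q was 0.0282.

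The other 3 beta-propeller subunits, osm-12, bbs-9 and bbs-2, differed in their calls. For osm-12 (Y75B8A.12, chromosome III), which was called, the authors' deposited table holds 3.52 FPKM in ASH against 0.722 FPKM in non-ASH and a DESeq2 log2 fold change of 2.0 (adjusted p = 0.0417). Cuffdiff did not call osm-12 (q = 0.378 in the authors' deposited table). For bbs-9 (C48B6.8, chromosome I), a central subunit of the complex in vertebrates, the authors' deposited table has 2.42 FPKM in ASH against 0.488 FPKM in non-ASH.

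Of the members that did not pass, bbs-9 was the nearest to the threshold, at 2.03 on the log2 scale by DESeq2 (adjusted p = 0.0767), while Cuffdiff called it (q = 0.0449), both per the authors' deposited table. The subunit gene bbs-2 (F20D12.3, chromosome IV) was at 2.05 FPKM in ASH against 0.460 FPKM in non-ASH, the lowest non-ASH level of the members in the authors' deposited table. Neither tool called bbs-2: its DESeq2 log2 fold change was 1.74 (adjusted p = 0.256) and its Cuffdiff q was 0.133 in the authors' deposited table.

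The subunits with tetratricopeptide repeats, bbs-4 and bbs-8, differed in level. Per the authors' deposited table, bbs-8 (T25F10.5, chromosome V) had 9.03 FPKM in ASH against 3.05 FPKM in non-ASH, and bbs-4 (F58A4.14, chromosome III) had 1.89 FPKM in ASH against 0.625 FPKM in non-ASH. The level of bbs-8 in non-ASH was the highest of the members there. Neither gene was called by either tool, and by DESeq2 the authors' deposited table gives log2 fold changes of 1.23 to bbs-8 (adjusted p = 0.191) and of 1.0 to bbs-4 (adjusted p = 0.291). Their ratios of FPKM, 2.96 for bbs-8 and 3.03 for bbs-4, were the smallest of the 8.

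The gene bbs-5 (R01H10.6, chromosome III) encodes the subunit with pleckstrin-homology-like domains, which binds phosphoinositides in vertebrates. In C. elegans bbs-5 and bbs-4 are known to act redundantly in the removal of ciliary receptors. The authors' deposited table gives bbs-5 9.10 FPKM in ASH against 1.50 FPKM in non-ASH, the highest ASH level of the members. Its DESeq2 log2 fold change was 1.99 with the smallest adjusted p of the 8, 0.00208, and its Cuffdiff q was 0.0156, both from the authors' deposited table. Of this redundant pair, bbs-5 was called by both tools and bbs-4 by neither. The difference between their fold changes was not tested.

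The GTPase gene arl-6 (C38D4.8, chromosome III) is the worm's BBS3. Its level in the authors' deposited table was 4.31 FPKM in ASH against 0.744 FPKM in non-ASH, close to those of bbs-1 and osm-12. The ratio of these levels was 5.79, yet DESeq2's log2 fold change was 1.08, which is a 2.11-fold difference, and its adjusted p was 0.527 in the authors' deposited table. Cuffdiff did not call arl-6 either (q = 0.177 in the authors' deposited table).

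**Figure D1:**
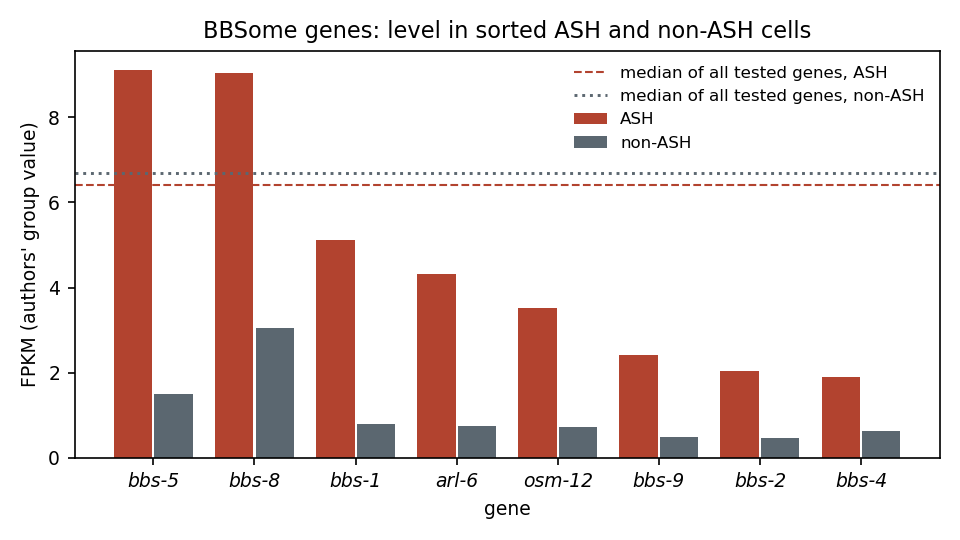
Bars give the authors' group FPKM of each BBSome gene in ASH and non-ASH cells, ordered by the ASH level, with 1 value per group and no error available. The dashed line is the median of all tested genes in ASH (6.41 FPKM) and the dotted line that in non-ASH (6.69 FPKM); bbs-5 and bbs-8 stand above the ASH median, and every non-ASH bar is under the non-ASH median.

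The members differed among themselves by 4.81 times in ASH, bbs-5 over bbs-4, and by 6.63 times in non-ASH, bbs-8 over bbs-2. In falling order of level the genes in ASH were bbs-5, bbs-8, bbs-1, arl-6, osm-12, bbs-9, bbs-2 and bbs-4. The order in non-ASH was bbs-8, bbs-5, bbs-1, arl-6, osm-12, bbs-4, bbs-9 and bbs-2. Thus bbs-1, arl-6 and osm-12 followed each other directly, behind bbs-5 and bbs-8, in both groups, and Spearman's rho between the groups was 0.90 over the 8 genes, which share the same libraries. With no spread between libraries at hand, whether neighbours in these orders differ cannot be judged. Of the summed FPKM, bbs-8 made up 24.1% in ASH against 36.4% in non-ASH, and bbs-5 made up 24.3% in ASH against 17.9% in non-ASH.

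BBSome genes were of middle to low abundance. Of the 8, 6 lay below the median of all tested genes in ASH and 8 below it in non-ASH. Placed among the 16802 genes with a DESeq2 adjusted p, called tested here, the members ran in ASH up from the 35.1 percentile of bbs-4 to the 54.9 percentile of bbs-5. In non-ASH they ran up from the 12.3 percentile of bbs-2 to the 39.4 percentile of bbs-8. All 8 members had an adjusted p, so none dropped out of the test for low counts.

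No member was called lower by DESeq2, against 4.44% of all tested genes, and the 3 called higher stand beside the 5.32% given above. Among the 3698 tested genes whose mean FPKM of both groups fell within the members' range of 1.26 to 6.04, 7.14% were called higher. All 8 members had a positive fold change, against 45.7% of tested genes, and all 8 had a log2 fold change of at least 1, against 13.3%. The median log2 fold change was 1.86 over the members and -0.09 over all tested genes in the authors' deposited table. At least 1 of the tools called 4 members. The share of all tested genes called higher by at least 1 tool was not computed. It cannot be smaller than the share of DESeq2, 5.32%, or that of Cuffdiff, 3.58%. Nothing in the labels says that libraries came from separate sorts or cultures, so these p-values may measure a technical spread only.

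The authors' deposited table holds no standard error. If its DESeq2 p came from that tool's default Wald test, which the sources used here do not state, the standard error follows from the fold change and the p. On that reading the log2 fold change of bbs-5 was 1.99 ± 0.49 (SE) and that of bbs-1 was 2.34 ± 0.69. The widest error belonged to arl-6, at 1.08 ± 1.02, with a 95% interval of -0.92 to 3.08. The intervals of bbs-2 (-0.14 to 3.62) and bbs-4 (-0.15 to 2.16) also included 0, and those of the other 5 members lay above it. An interval above 0 is the same as an unadjusted p under 0.05 with a positive fold change, which 11.4% of all tested genes had. All 8 intervals overlapped between 1.02 and 2.16. Overlap is not a test of a difference, and no test between members was run. The 3 calls therefore do not show that bbs-1, bbs-5 and osm-12 differ in fold from the other 5.

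**Figure D2:**
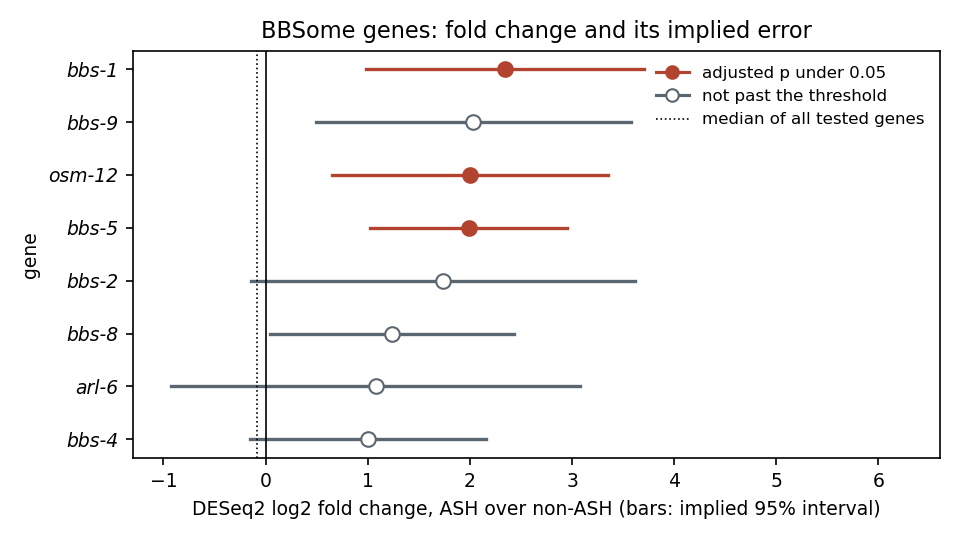
Points give the authors' DESeq2 log2 fold change of each BBSome gene, ASH over non-ASH, and bars the 95% interval implied by its p under a Wald test; filled points have an adjusted p under 0.05. All 8 points lie to the right of 1, the bars of arl-6, bbs-2 and bbs-4 reach below 0, and all bars overlap.

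For each member the ratio of Cuffdiff's group levels was set beside the DESeq2 fold change. After the added 1 was taken off, the log2 ratio of FPKM exceeded the DESeq2 log2 fold change by 0.27 to 0.61 in the 7 subunit genes. In arl-6 it did so by 1.46. Over the 16742 tested genes listed above 0 FPKM in both groups, the median absolute gap was 0.18, and 5.73% of them had a gap at least as large as that of arl-6. A gap this wide was not particular to arl-6 among the cilium genes described below. For example, ifta-2, named after its values were seen, had 5.19 FPKM in ASH against 0.150 FPKM in non-ASH. Its DESeq2 log2 fold change was 1.97 (adjusted p = 0.178). The ASH enrichment of arl-6 thus depended on the measure, at 5.79-fold by FPKM without the added 1 and 2.11-fold by DESeq2. Cuffdiff's own deposited log2 fold change of arl-6, which keeps the added 1, was 1.61. What sets these measures apart was not tested. In the annotation (Ensembl release 115) the arl-6 transcript is 1417 nt long with 570 nt of coding sequence, the shortest coding sequence of the 8, and that of bbs-9 is the longest at 2232 nt.

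**Figure D3:**
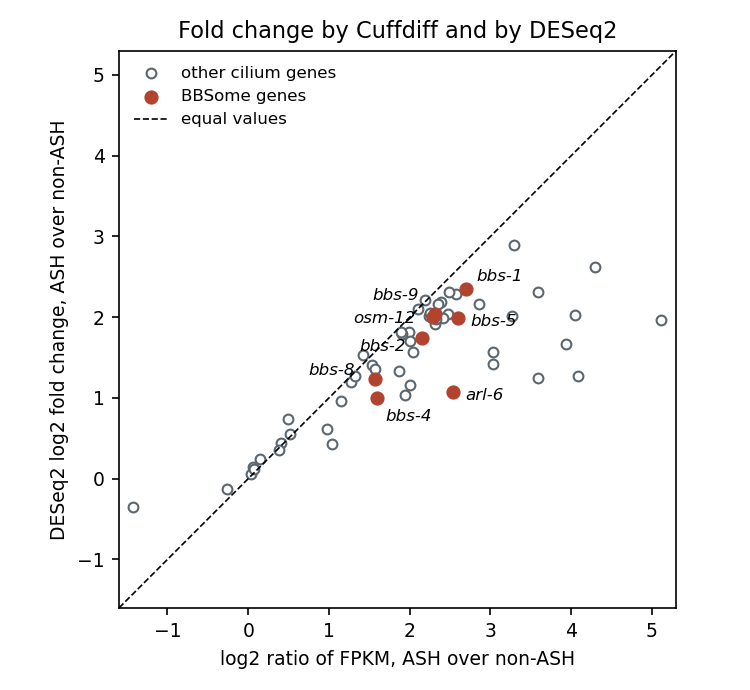
Each point is a gene, with the log2 ratio of its Cuffdiff group FPKM (ASH over non-ASH, without the added 1) on the x axis and its DESeq2 log2 fold change on the y axis; filled points are BBSome genes and open points the tested genes of 6 other cilium lists. The subunit genes lie 0.27 to 0.61 below the dashed line of equal values and arl-6 lies 1.46 below it.

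The surroundings of the members were read from the same annotation. The gene bbs-5 overlaps inpp-4B on the same strand, and osm-12 overlaps Y75B8A.44 on the opposite strand, so that reads of these pairs may be shared, depending on how the authors counted them. These are the protein-coding overlaps, and both partners had the lower level in ASH, unlike their BBSome gene. In the authors' deposited table inpp-4B had 17.1 FPKM in ASH against 25.2 FPKM in non-ASH (log2 fold change -0.41, adjusted p = 0.389 by DESeq2). That table lists Y75B8A.44 at 3.76 FPKM in ASH against 40.2 FPKM in non-ASH, where DESeq2's log2 fold change was -2.43 and no adjusted p was given. The gene bbs-1 overlaps the noncoding RNA gene Y105E8A.47 on the same strand, which the authors' deposited table lists at 2.57 FPKM in ASH against 0 in non-ASH, with a DESeq2 log2 fold change of 0.84 and no adjusted p. This partner had the higher level in ASH, as bbs-1 did, and its part in the value of bbs-1 was not tested. Of the 16 nearest protein-coding neighbours on either side, 13 were tested, and 1 was higher and 0 lower in ASH. Of all tested genes, 5.32% were higher and 4.44% lower. The higher neighbour was ech-7, beside bbs-1 on the same strand. It had 143.8 FPKM in ASH against 33.4 FPKM in non-ASH and a DESeq2 log2 fold change of 2.02 (adjusted p = 0.000205) per the authors' deposited table.

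The BBSome travels with IFT, and the genes of the IFT machinery were compared with it. Of the 6 genes of IFT-A, the complex of the return journey from the ciliary tip, 0 were called by DESeq2 and 6 had a positive fold change, with a median log2 fold change of 1.80. At an unadjusted DESeq2 p under 0.05, 5 of the 6 were higher, and Cuffdiff called 1. Of all tested genes, DESeq2 called 5.32% higher, 11.4% were higher at the unadjusted threshold and Cuffdiff called 3.58% higher. Of the 14 genes of IFT-B, the complex of the outward journey, 4 were higher and 0 lower, all 14 fold changes were positive and the median was 1.83. The smallest adjusted p belonged to dyf-3, with 18.9 FPKM in ASH against 7.83 FPKM in non-ASH and 1.20 on the log2 scale (DESeq2 adjusted p = 0.000717 in the authors' deposited table). It was followed by dyf-13, at 3.32 FPKM in ASH against 0.559 FPKM in non-ASH with 2.29 (adjusted p = 0.0236), and ift-20, at 16.1 FPKM in ASH against 0.821 FPKM in non-ASH with 2.62 (adjusted p = 0.0262), again by DESeq2 in the authors' deposited table. The remaining gene was osm-6, named after its values were seen, at a DESeq2 log2 fold change of 2.10 (adjusted p = 0.0477) there.

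Of 7 tested genes of IFT motors 2 were higher and 0 lower, with a median log2 fold change of 0.55. They were che-3, the heavy chain of the dynein that carries trains back, at a log2 fold change of 2.31 (adjusted p = 0.0136), and osm-3, the homodimeric kinesin of the outer segment, at 1.33 (adjusted p = 0.0144), by DESeq2 in the authors' deposited table. Named after its values were seen, dylt-2 had no adjusted p and is not in this median. Its levels were 8.18 FPKM in ASH against 0.0866 FPKM in non-ASH. The median does include dli-1, also named after its values were seen. Its levels were 61.7 FPKM in ASH against 60.2 FPKM in non-ASH. The genes of heterotrimeric kinesin-II, which were read after their values were seen, did not pass. Their log2 fold changes were 0.55 for klp-11, -0.13 for klp-20 and -0.36 for kap-1, with adjusted p of 0.477, 0.841 and 0.779, in the authors' deposited table. In C. elegans BBS7 (osm-12) and BBS8 (bbs-8) are known to hold kinesin-II and OSM-3 together on moving trains. In ASH, osm-3 stood at 4.48 FPKM against 1.23 FPKM in non-ASH, and kap-1 at 0.372 FPKM in ASH against 1.0 FPKM in non-ASH, per the authors' deposited table.

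Of 14 genes of the transition zone, the gate at the base of the cilium, 2 were higher and 0 lower, with a median log2 fold change of 1.74. These were mks-2, with 2.90 (adjusted p = 0.017), and mks-5, with 2.21 (adjusted p = 0.0322), by DESeq2 in the authors' deposited table. Among 8 genes of ciliary small GTPases and of carriers of lipid-modified or receptor cargo, 4 were higher and 0 lower, with a median of 1.25. The GTPase gene arl-13 had a log2 fold change of 1.53 (adjusted p = 0.0144) and the GTPase gene arl-3 had 1.99 (adjusted p = 0.0152), per DESeq2 in the authors' deposited table. The tubby gene tub-1, an adaptor for delivery of ciliary receptors, stood at 10.4 FPKM in ASH against 0.871 FPKM in non-ASH with 2.32 (adjusted p = 0.0154, DESeq2 in the authors' deposited table). The GTPase gene rab-28, whose product depends on the BBSome for its place in worm cilia, is named here after its values were seen. It had 15.1 FPKM in ASH against 3.02 FPKM in non-ASH and rose by 1.98 on the log2 scale (adjusted p = 0.0483 by DESeq2 in the authors' deposited table).

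The gene daf-19, the RFX transcription factor that activates BBSome and IFT genes through X-box promoter motifs, was not called. It had 7.19 FPKM in ASH against 3.51 FPKM in non-ASH and a log2 fold change of 0.43 (adjusted p = 0.545 by DESeq2 in the authors' deposited table). Of 6 tested channel and receptor genes of cilia 2 were higher and 0 lower, and the median was -1.0. The 2 that rose were ocr-2, at 3.53 on the log2 scale (adjusted p = 1.57e-05), and osm-9, at 3.04 (adjusted p = 0.000416), the genes of TRPV channels known in ASH, by DESeq2 in the authors' deposited table. The CCT chaperonin, which helps to assemble the BBSome in vertebrates, had 0 of 8 genes called by DESeq2, and its median log2 fold change was 0.00. None of the 8 chaperonin genes had an unadjusted DESeq2 p under 0.05, and Cuffdiff called 0.

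**Figure D4:**
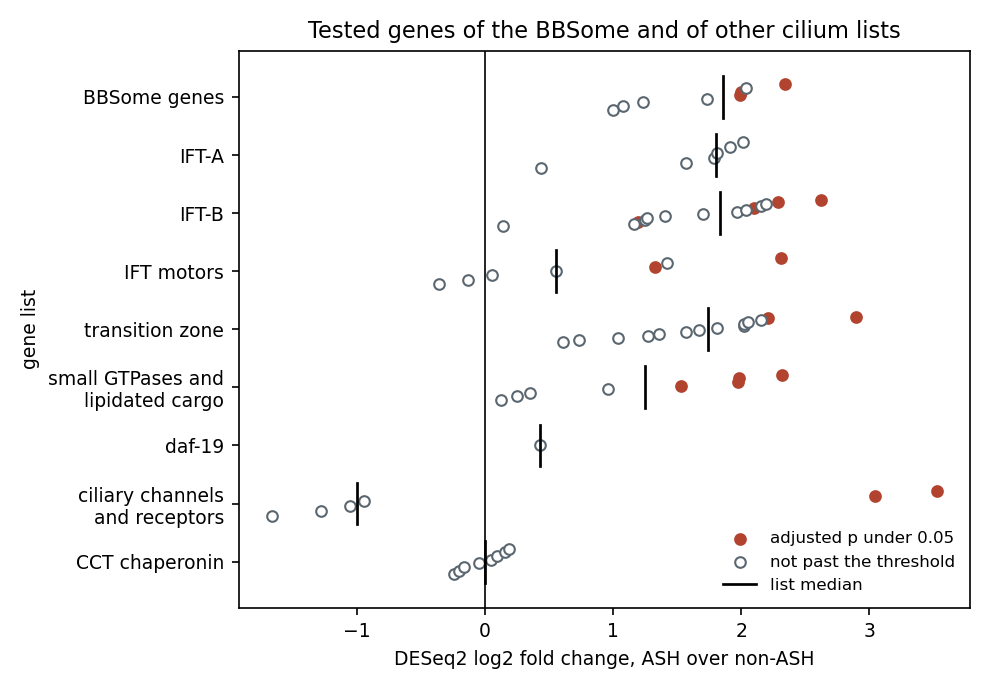
Each point is a tested gene of the named list, with its DESeq2 log2 fold change, ASH over non-ASH, on the x axis; filled points have an adjusted p under 0.05 and black bars are list medians. The medians of the BBSome (1.86), IFT-A (1.80), IFT-B (1.83) and transition zone (1.74) lists lie close together, and that of the CCT chaperonin is 0.00.

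Over the IFT, transition zone and GTPase lists with daf-19, 12 of 50 tested genes were higher and 0 lower, 48 fold changes were positive and the median was 1.57. Of all tested genes, 5.32% were called higher and 4.44% lower by DESeq2, and 45.7% had a positive fold change. The BBSome genes, with 3 of 8 higher and a median of 1.86, were not tested against them. Of the 51 genes of these lists in the table, the 5 whose pair of levels lay nearest to the median BBSome gene were dyf-11, dyf-1, ifta-1, mksr-2 and dyf-13. Nearness was the distance on the log2(FPKM + 0.1) scale over the 2 group values. The closest, dyf-11, lay at a distance of 0.12, with 3.63 FPKM in ASH against 0.694 FPKM in non-ASH per the authors' deposited table. The BBSome genes themselves lay 0.14 to 2.26 from their own median.

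Markers of other cells were checked beside these results. All 7 ASH markers were called higher in ASH by DESeq2 and 5 by Cuffdiff, at a sum of 253.7 FPKM in ASH against 10.4 FPKM in non-ASH. The ASH sum is mostly osm-10 (142.1 FPKM) and unc-42 (72.3 FPKM). The markers osm-9 and ocr-2 are also among the ciliary channels given above. Markers of other ciliated sensory neurons summed to 132.5 FPKM in ASH against 170.2 FPKM in non-ASH. Both sums are mostly flp-6, at 109.9 FPKM in ASH against 102.9 FPKM in non-ASH. The median of the 20 markers was 0.246 FPKM in ASH against 0.370 FPKM in non-ASH. Of the 20, 16 were tested and 0 were called by either DESeq2 or Cuffdiff, while 3 of them, gcy-36, ins-6 and daf-7, had an unadjusted DESeq2 p under 0.05 and lower values in ASH. Of this list str-1 was listed at 0 in ASH. Markers of neurons without cilia summed to 95.6 FPKM in ASH against 117.0 FPKM in non-ASH, with 0 of 11 called by either tool. Both sums are mostly flp-18, at 64.6 FPKM in ASH against 90.3 FPKM in non-ASH. Of the 11, 1 had an unadjusted DESeq2 p under 0.05. It was unc-25, which was higher in ASH, at 16.4 FPKM against 8.20 FPKM in non-ASH. Of 7 intestine markers DESeq2 called 3 higher, elt-2, vha-6 and asp-1, and 0 lower. Cuffdiff also called 3 higher, elt-2, vha-6 and elt-7 (q = 0.00817 for elt-7), but not asp-1 (q = 0.111). The sum of the 7, 3789 FPKM in ASH against 800.4 FPKM in non-ASH, is mostly asp-1, at 3660 FPKM in ASH against 692.4 FPKM in non-ASH. The intestine marker act-5 went the other way, at 27.6 FPKM in ASH against 66.6 FPKM in non-ASH, and passed with Cuffdiff (q = 0.0213) but not with DESeq2 (adjusted p = 0.186), per the authors' deposited table. Of 7 pharynx markers DESeq2 called 5 lower and 0 higher, at a sum of 44.0 FPKM in ASH against 485.5 FPKM in non-ASH. DESeq2 called 1 of 5 body wall muscle markers higher, 1 of 5 epidermis markers higher and 2 of 5 tested glia markers lower. Beside these marker counts, DESeq2 called 5.32% of all tested genes higher and 4.44% lower. The part of these other cells in the levels of BBSome genes was not tested.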

How the data were processed

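Strand-specific libraries of poly(A)-selected RNA were made from sorted cells, per the labels' protocols, and samples were grouped by their titles. The submitters' processing notes name alignment with TopHat2 2.0.13 on Bowtie2 2.2.1, then a Cufflinks and Cuffdiff route and an HTSeq and DESeq2 route. The sources used here do not give the build, annotation, counting rules or model settings, and no coordinates are printed. Promoter and protein sequences were not analysed here.

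The authors' deposited table of the comparison was analysed. It has 46273 rows, with 1 repeat dropped here. It holds a Cuffdiff group value for ASH and for non-ASH. The column names do not give the unit. The values were read here as FPKM with 1 added by the authors, and the 1 was subtracted. Cuffdiff's deposited log2 fold changes were checked to equal the log2 ratio of the group values before that subtraction. The table's log2 fold changes, deposited for each tool, are ASH over non-ASH. Its p-values and q-values, also as deposited, were used unchanged. The authors' adjusted p of DESeq2 was checked to equal a Benjamini-Hochberg adjustment over the 16802 tested genes. Depth per library is unknown. No test of differential expression across genes was run here, since there is 1 value per group.

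Genes were called at an adjusted p under 0.05. Implied standard errors divide the authors' log2 fold change by the normal deviate of its p. The adjustment and the implied errors were tested on simulated data with known answers. The simulated p were made by the Wald relation itself. This checks the arithmetic only, and cannot show that the authors' p came from that test. Transcript lengths and neighbours came from Ensembl release 115 (WBcel235), matched by WormBase identifier, and the authors' annotation may differ. From the other cilium and chaperonin lists, genes were named if called, at most 3 per list by smallest adjusted p, with daf-19 always named. The 5 genes nearest in level were also named, and other genes named after their values were seen are marked so. Members, lists and rules were chosen with earlier results of these data known. Alternatives were stricter thresholds, Cuffdiff's q, both tools together, an FPKM floor of 1, a readjustment over protein-coding genes and other pseudocounts. Computation used Python 3.11.15, pandas 2.3.3 and SciPy 1.17.1.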

Additional observations from a re-analysis of the deposited data

How the results depend on the processing

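The count of 3 BBSome genes higher in ASH was 3 with a limit of at least 2-fold, with a floor of 1 FPKM, with p readjusted over protein-coding genes and with Cuffdiff's q, and 2 by both tools together. It was 1, bbs-5, at an adjusted p under 0.01. The shares of all tested genes at the stricter thresholds were not computed. With Cuffdiff's q, osm-12 dropped out (q = 0.378) and bbs-9 came in (q = 0.0449). For the 8 other cilium and chaperonin lists together, 14 genes were higher, against 3 at an adjusted p under 0.01, 7 by both tools and 12 with Cuffdiff's q. The 3 were dyf-3 and the channel genes osm-9 and ocr-2, which are also ASH markers. Of all tested genes, 5.32% were higher by DESeq2, 2.36% by both tools and 3.58% with Cuffdiff's q. The log2 ratio of FPKM of the members was positive with each pseudocount, and ran over 0.83 to 2.01 with the authors' added 1, over 1.46 to 2.56 with 0.1, over 0.29 to 1.12 with 5 and over 1.57 to 2.70 with none. Which of these settings fits low genes best was not tested. No paired analysis was possible because the table holds 1 value per group, so the replicate numbers in the titles could not be used, and leaving out each replicate in turn was not run for the same reason. The table gives neither depth nor the spread between libraries, which limits every level printed here.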
